A study of Homo sapiens with 10 samples.

Results

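Epithelial cells are joined by adhesion proteins and hold their identity through a set of nuclear and trafficking regulators. The chromatin at 10 genes of these kinds was examined in MDAMB231, a breast cancer line with mesenchymal-like traits. The genes have known roles in epithelia and are 10 of the 20098 protein-coding genes annotated on the autosomes and chromosome X. The adhesion genes were CDH1, CDH3 and EPCAM, the trafficking gene was RAB25, the splicing genes were ESRP1 and ESRP2, and the transcription factor genes were GRHL2, OVOL1, OVOL2 and ELF3.

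The study mapped open chromatin by FAIRE-seq, and the histone marks H3K4me3, H3K27Ac and H3K4me1 by ChIP-seq. The cells were an established line grown in DMEM with 5% fetal bovine serum, with no treatment. Each assay had 2 libraries, and there was 1 input library for ChIP and 1 for FAIRE, which makes 10 samples. The list of peaks used here for each assay is 1 list made from its combined libraries, so no value here has a replicate error.

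Cadherins are calcium-dependent proteins that bind their like on the neighbouring cell and hold epithelial sheets together; CDH1 encodes E-cadherin and CDH3 encodes P-cadherin. EPCAM encodes a further epithelial surface protein, RAB25 a small GTPase of recycling endosomes, and ESRP1 and ESRP2 encode RNA-binding proteins that set epithelial splice forms. GRHL2, OVOL1, OVOL2 and ELF3 encode transcription factors of epithelia, and mesenchymal repressors such as ZEB1 and SNAI1 act on epithelial promoters through E-box motifs. H3K4me3 marks promoters, H3K27Ac marks active promoters and enhancers, H3K4me1 is typical of enhancers, and FAIRE recovers DNA that is free of nucleosomes.

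The H3K4me3 list held 18019 peaks, the H3K27Ac list 37495, the H3K4me1 list 26771 and the FAIRE list 46552. A histone peak carries a MACS score, which is the negative log10 of its p-value multiplied by 10, so that a higher score is a smaller p-value. Scores of 3100 or more are at the limit of the software, and 10237 of the H3K4me3 peaks (56.8%) reached it, so such scores cannot be ranked. The value of a FAIRE peak, with a median of 61.1, was taken as its height, and heights and scores are on different scales. A promoter was any annotated start site of a gene with 1 kb on each side, and it was marked where it shared at least 1 base with a peak. The lists give no read depth, so a promoter with no peak is one that did not reach the authors' threshold, and is not shown to lack the mark. Whether a promoter had lost a mark cannot be told from 1 cell line, and mammary epithelial cells were not used here.

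The promoters of RAB25, OVOL1 and ELF3 met no peak of any list, which is 3 of 10 members beside 29.3% of all protein-coding genes. That count is close to the background. RAB25 and ELF3 were the 2 of 10 members found in the RefSeq promoter table (GRCh38.p14), and their upstream bases were matched letter for letter to GRCh37. The entries for CDH1, CDH3, EPCAM, ESRP1, ESRP2, GRHL2, OVOL1 and OVOL2 were missing. The 250 bases before each start are shown because they are promoters that met no peak. The RAB25 bases lie at chr1:156030701-156030950 and the ELF3 bases at chr1:201979465-201979714, both on the forward strand of GRCh37. Capitals mark the E-box CAGGTG, searched on both strands and so also read as CACCTG.
RAB25: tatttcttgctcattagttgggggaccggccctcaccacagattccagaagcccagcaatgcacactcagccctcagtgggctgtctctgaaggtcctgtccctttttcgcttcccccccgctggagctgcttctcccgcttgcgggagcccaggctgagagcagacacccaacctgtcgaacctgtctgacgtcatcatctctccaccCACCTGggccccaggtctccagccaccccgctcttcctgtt
ELF3: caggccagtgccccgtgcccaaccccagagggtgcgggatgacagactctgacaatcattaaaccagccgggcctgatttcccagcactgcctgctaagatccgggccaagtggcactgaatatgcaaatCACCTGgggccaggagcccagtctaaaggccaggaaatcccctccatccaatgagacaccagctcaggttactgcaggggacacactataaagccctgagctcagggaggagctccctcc
Each held 1 E-box, which in RAB25 ends 36 bases and in ELF3 ends 115 bases before the start. The same motif was found in 2601 of 15289 protein-coding regions of this length and position (17.0%), and a match of these letters is a description only.

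H3K4me3 and H3K27Ac peaks lay within a few kb of the RAB25 and OVOL1 starts. The nearest H3K4me3 peak to the RAB25 start lay 4942 bp upstream and reached the ceiling of 3100, with an H3K27Ac peak of the same score and a FAIRE peak of height 103. These peaks lay at the promoters of LAMTOR2 and UBQLN4. OVOL1, which encodes a zinc-finger factor, had its nearest H3K4me3 peak 4577 bp upstream of its start, at the promoter of AP5B1, with a score of 3100. Its nearest H3K27Ac peak lay 4932 bp upstream at the same promoter and scored 1359.9, while its nearest FAIRE peak was 65949 bp and its nearest H3K4me1 peak 122083 bp away. ELF3, an ETS factor gene, was farther from marked promoters, as its nearest H3K4me3 peak lay 26021 bp upstream at RNPEP. So around RAB25 and OVOL1 the nearest H3K4me3 and H3K27Ac peaks belonged to other genes by position.

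Of the 10 members, 5 had an H3K4me3 peak at a promoter, beside 67.3% of all protein-coding genes. H3K27Ac was found at 3 of 10 (background 63.5%), H3K4me1 at 2 of 10 (20%) and FAIRE at 4 of 10 (39.3%). The H3K4me1 and FAIRE counts were near their backgrounds, H3K4me3 was under its background by fewer than 2 genes, and H3K27Ac lay farthest under. With 10 genes, 1 gene moves a share by 10 percentage points.

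These counts take in every annotated start, and the 10 members have 75 start sites, a median of 7.5 each beside 5 for all genes. At the canonical start alone, 5 of 10 members had H3K4me3 (65.1% of the 19819 genes with a canonical start on this build) and 2 of 10 had H3K27Ac (60.2%). H3K4me1 was found there at 1 of 10 (12.5%) and FAIRE at 0 of 10 (31.8%). No peak of any list met the canonical start of 5 of 10, namely CDH1, RAB25, GRHL2, OVOL1 and ELF3 (32.8%). CDH1 and GRHL2 thus had peaks only at other starts, a state found in 2 of 10 members and in 4.25% of all genes.

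**Figure D1:**
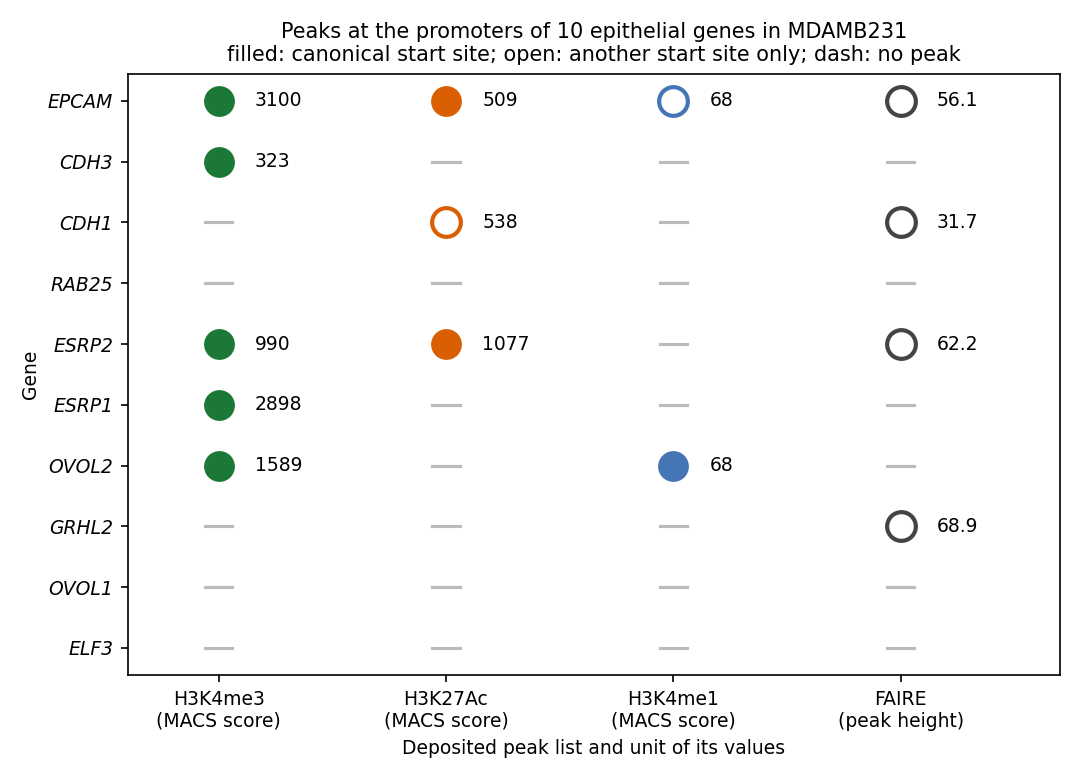
Peaks at the promoters of the 10 members, with the MACS score of histone peaks and the height of FAIRE peaks printed beside each point. Filled points are peaks at the canonical start, with the value there, open points are peaks at another start only, and a dash is no peak; all 4 FAIRE points are open.

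Among the adhesion genes, CDH1 had no H3K4me3 peak at any of its 10 start sites. The gene lies at chr16:68771195-68869440, and the nearest H3K4me3 peak to its canonical start was 90646 bp upstream, at the promoter of CDH3. Only 11.7% of genes lay as far or farther from an H3K4me3 peak. The H3K27Ac peak counted for CDH1 (score 538) and the FAIRE peak (height 31.7) met a start site 85953 bp inside the gene. That start belongs to a transcript with a retained intron, and both peaks also met the start of a noncoding pseudogene, FTLP14. At the start that makes E-cadherin, none of the 4 lists had a peak, and the nearest was a FAIRE peak of height 69.7 in the gene, 4239 bp downstream.

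CDH3 had an H3K4me3 peak over its canonical start, with a score of 323, and no other peak at a promoter. The peak at chr16:68678125-68680549 was 2425 bp wide and had the lowest score of the 5 H3K4me3 promoters. It also met the promoter of the noncoding gene CDH3-AS1, so it cannot be given to CDH3 alone. H3K27Ac and FAIRE peaks of the gene lay in its introns, the nearest H3K27Ac peak 12569 bp downstream of the start. The start of P-cadherin's gene thus met a peak of the H3K4me3 list only, while the canonical start of the neighbouring E-cadherin gene met none.

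EPCAM was the member with the most marks, with peaks of all 4 lists at its promoters. Its canonical start was met by an H3K4me3 peak at the ceiling of 3100 and an H3K27Ac peak with a score of 509, and by no FAIRE or H3K4me1 peak. A start 24153 bp upstream was met by peaks of all 4 lists, with scores of 1565 for H3K4me3, 1255 for H3K27Ac and 68.3 for H3K4me1, and a FAIRE height of 56.1. The upstream peaks also met the promoter of EPCAM-DT, a divergent noncoding gene. EPCAM therefore differed from CDH1 and CDH3 in having acetylation at its canonical start.

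The splicing genes differed in acetylation. ESRP1 had an H3K4me3 peak with a score of 2898 and no H3K27Ac, H3K4me1 or FAIRE peak at any of 11 start sites. That H3K4me3 peak was 4506 bp wide, and 89.9% of marked genes had a widest promoter peak that was as narrow or narrower, beside a median of 2973 bp. The nearest H3K27Ac peak to ESRP1 was 76742 bp downstream, at the promoter of DPY19L4. ESRP2 had H3K4me3 (score 990.1) and H3K27Ac (score 1077) over its canonical start, and a FAIRE peak (height 62.2) at a start 1975 bp upstream. ESRP1 thus had the higher-scoring and ESRP2 the lower-scoring H3K4me3 peak, with an H3K27Ac peak at ESRP2 only.

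Of the 4 transcription factor genes, OVOL2 alone had an H3K4me3 peak at a promoter, with a score of 1589. A low and broad H3K4me1 peak of score 68.2 and width 4499 bp covered the same start. No H3K27Ac or FAIRE peak met it, and the nearest of each lay 63886 and 63729 bp downstream, inside the gene. GRHL2 had no H3K4me3 peak within 50 kb, and its nearest one lay 284568 bp upstream, a distance reached or passed by 3.57% of genes. Its FAIRE peaks, of heights 44.1 and 68.9, met start sites 139787 and 144331 bp inside the gene, so none was at its canonical start.

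**Figure D2:**
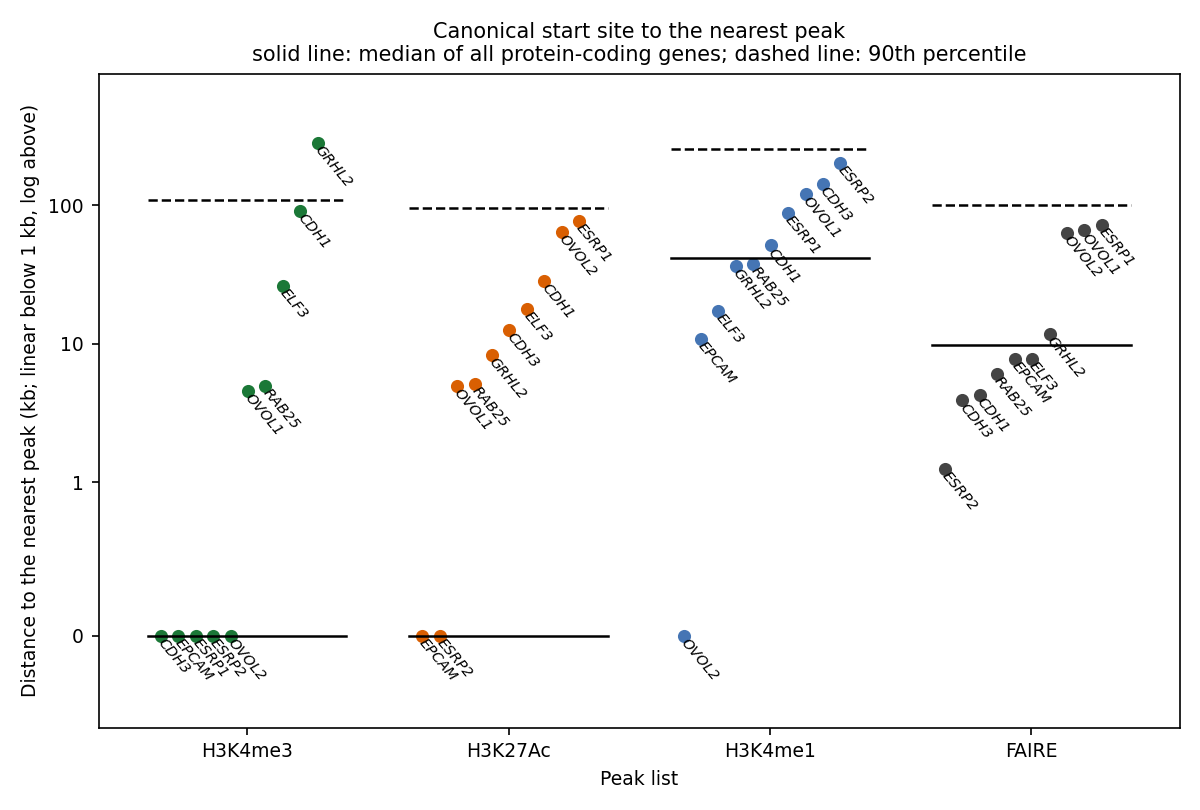
Distance in kb from the canonical start of each member to the nearest peak of each list, with the median (solid line) and 90th percentile (dashed line) of all protein-coding genes. GRHL2 lies past the 90th percentile of 109195 bp for H3K4me3, and 5 members lie at 0 in that list.

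CDH3, ESRP1 and OVOL2 had H3K4me3 without H3K27Ac at any promoter. That is 3 of 10 members beside 6.05% of all genes, and the same 3 of 10 at the canonical start beside 6.3%. Among genes with H3K4me3 at a promoter it is 3 of 5 members beside 8.98%. The state was not particular to the members, as it was also found in 8 of 32 other epithelial genes, 4 of 8 luminal and hormone receptor genes and 2 of 9 cadherin genes, CDH3 among them. In the mesenchymal list it was found in 1 of 15 genes at any start and in 2 of 15 at the canonical start (13.3%). In a list of genes of cell junctions it was found in 1 of 8 under both. The H3K4me3 score was under the ceiling of 3100 at 4 of 5 marked members beside 18.2% of marked genes. Among marked genes of the other lists it was so at 11 of 27 epithelial, 5 of 7 luminal, 2 of 4 cadherin, 2 of 11 mesenchymal and 0 of 8 junction genes. Low H3K4me3 scores were therefore shared with the epithelial and luminal lists. The highest H3K27Ac score of each marked member over any start was 538 to 1255, under the median of 1357 for all marked genes. The highest FAIRE height among the members, 68.9, was close to the median of 69.2 for marked promoters. Both H3K4me1 scores were under the median of 110.4, and neither would pass a stricter score of 100. Most promoter peaks of the members thus had values under the median of marked genes in their list.

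In the list of 32 other epithelial genes, 27 had H3K4me3 at a promoter (84.4%, beside 67.3% of all genes). At the canonical start it was 23 of 32 (71.9%, beside 65.1%), and at the most upstream start 20 of 32, so this count depended on the start sites taken. The share of all genes at the most upstream start was not counted. H3K27Ac was found at 19 of these 32 at any start (59.4%, beside 63.5% of all genes) and at 15 at the canonical start (46.9%, beside 60.2%). H3K4me1 was found at 7 (21.9%, beside 20%) and 5 (15.6%, beside 12.5%), and FAIRE at 9 (28.1%, beside 39.3%) and 5 (15.6%, beside 31.8%). Tight-junction genes CLDN4 and CLDN7 and the desmosome gene DSP had both H3K4me3 at 3100 and H3K27Ac, while CDS1 had H3K4me3 at 3100 without H3K27Ac. CRB3, ELF5, OVOL3, PRSS8 and S100A14 had no peak of any list. So most promoters of that list met an H3K4me3 peak in this line. In a list of 9 cadherin genes, 4 had H3K4me3, which were CDH3, CDH4, CDH11 and CDH15. CDH4 and CDH11 both reached 3100 and had H3K27Ac, while CDH15 scored 147 without H3K27Ac. CDH2, CDH5, CDH6 and CDH13 had no peak of any list, which leaves CDH1 as the only other cadherin of that list without H3K4me3.

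A list of 8 genes of cadherin and nectin junctions was marked in H3K4me3 throughout (67.3% of all genes). All 8 had H3K4me3 at 3100, including the catenin genes CTNNA1, CTNNB1 and CTNND1 and the afadin gene AFDN. H3K27Ac was found at 7 of 8 (63.5% of all genes), with scores of 3100 at CTNNA1, 2928 at CTNNB1, 2756 at CTNND1 and 1409.7 at AFDN. H3K4me1 and FAIRE were each found at 7 of 8 (87.5%, beside 20% and 39.3% of all genes), and at the canonical start at 2 and 6 of 8 (25% and 75%, beside 12.5% and 31.8%). JUP, which was named after its values were seen, was the gene of that list without H3K27Ac. The catenin genes CTNNA1, CTNNB1 and CTNND1 thus had peaks of both marks at a promoter, while the canonical E-cadherin start had none.

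In the mesenchymal list, H3K4me3 and H3K27Ac were each found at 11 of 15 promoters (73.3%), near the shares of 67.3% and 63.5% in all genes, so these counts do not identify the line. H3K4me1 was found at 6 of 15 (40%, beside 20%) and FAIRE at 8 of 15 (53.3%, beside 39.3%), and at the canonical start each was found at 5 of 15 (33.3%, beside 12.5% and 31.8%). Of the genes looked at as markers of the line, VIM, AXL, CAV1, CD44 and ZEB1 met peaks of all 4 lists at any start. At the canonical start only VIM and CAV1 of these did, as AXL and ZEB1 had no FAIRE peak and CD44 no H3K4me1 peak. SNAI1 had H3K4me3 (score 1965.5) and no other peak. CDH2, TWIST1 and TWIST2 had no peak, and SPARC had H3K27Ac (score 382) without H3K4me3. CDH11 had both H3K4me3 and H3K27Ac. Of the 8 luminal and hormone receptor genes, 7 had H3K4me3, 4 had H3K27Ac, 2 had H3K4me1 and 4 had FAIRE peaks. These shares were 87.5%, 50%, 25% and 50%, beside 67.3%, 63.5%, 20% and 39.3% of all genes. At the canonical start the counts were 6, 3, 1 and 3 of 8 (75%, 37.5%, 12.5% and 37.5%). The shares of all genes there were 65.1%, 60.2%, 12.5% and 31.8%. ESR1, PGR and FOXA1 had H3K4me3 without H3K27Ac, as CDH3, ESRP1 and OVOL2 did. GATA3 had H3K4me3 (2395) and H3K27Ac (383) at a start other than the canonical one, and ERBB2 and XBP1 had both marks. TFF1 had H3K27Ac (79.4), H3K4me1 (106) and FAIRE (96.5) without H3K4me3.

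**Figure D3:**
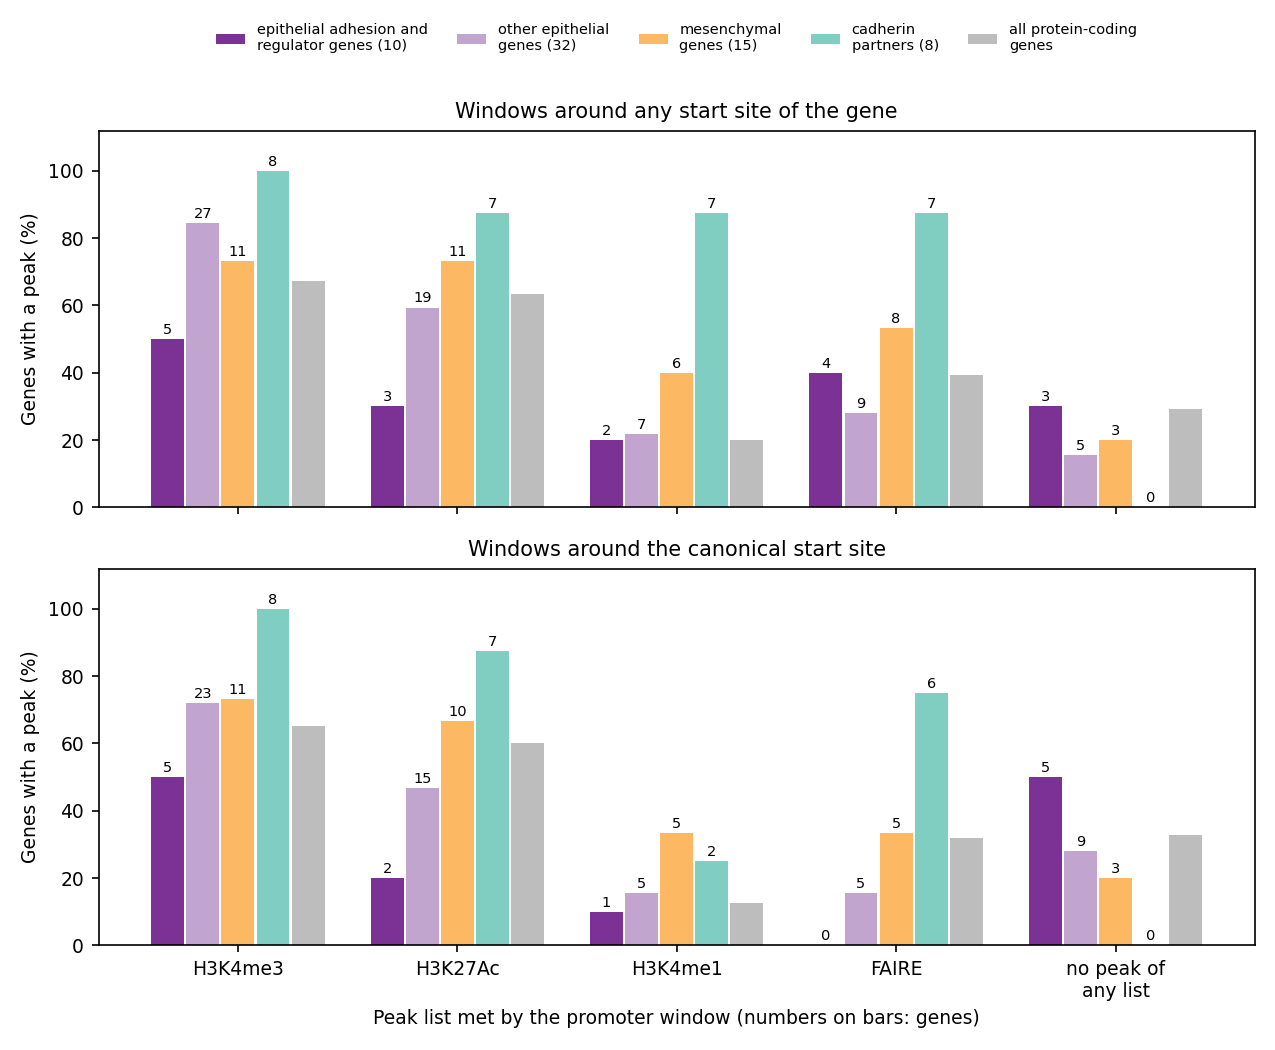
Share of genes (%) with a peak of each list at a promoter, and with no peak, for the 10 members, 3 other fixed lists and all protein-coding genes, at any start (top) and at the canonical start (bottom). The numbers on the bars are genes, and for H3K27Ac at any start they are 3, 19, 11 and 7.

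Beyond promoters, most members had peaks in their surroundings. Within 50 kb of the gene bounds, 9 of 10 members had an H3K4me3 peak (85.4% of all genes) and 10 of 10 an H3K27Ac peak (86.7%). H3K4me1 peaks were found at 6 of 10 (62.7%) and FAIRE peaks at 9 of 10 (85.1%). GRHL2 was the member without H3K4me3 and OVOL1 the one without FAIRE. These shares are near the backgrounds, so having at least 1 peak within 50 kb did not set the members apart. The shares do not speak to the number of peaks, which is given per 100 kb below.

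The surroundings of the 10 genes held 115 distinct peaks. Of these, 17 met a promoter of a member, 37 met only a promoter of another protein-coding gene, and 61 met none. Of the 20 H3K4me3 peaks, 13 lay only at promoters of other genes, while 34 of the 47 FAIRE peaks lay at no coding promoter. The neighbours so marked included TANGO6 near CDH1, DPY19L4 near ESRP1, PLA2G15 and SLC7A6 near ESRP2, MGME1 and SNX5 within the OVOL2 bounds, AP5B1 near OVOL1 and RNPEP near ELF3. Around RAB25 they were SSR2, LAMTOR2, UBQLN4, MEX3A and LMNA. The H3K4me3 counts around members therefore reported mostly on neighbours. Per 100 kb the members had a median of 3.17 FAIRE peaks beside 1.98 for all genes, and 2.17 H3K27Ac peaks beside 2.11. The medians were lower than in all genes for H3K4me3, at 1.1 beside 1.39, and for H3K4me1, at 0.71 beside 0.81.

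**Figure D4:**
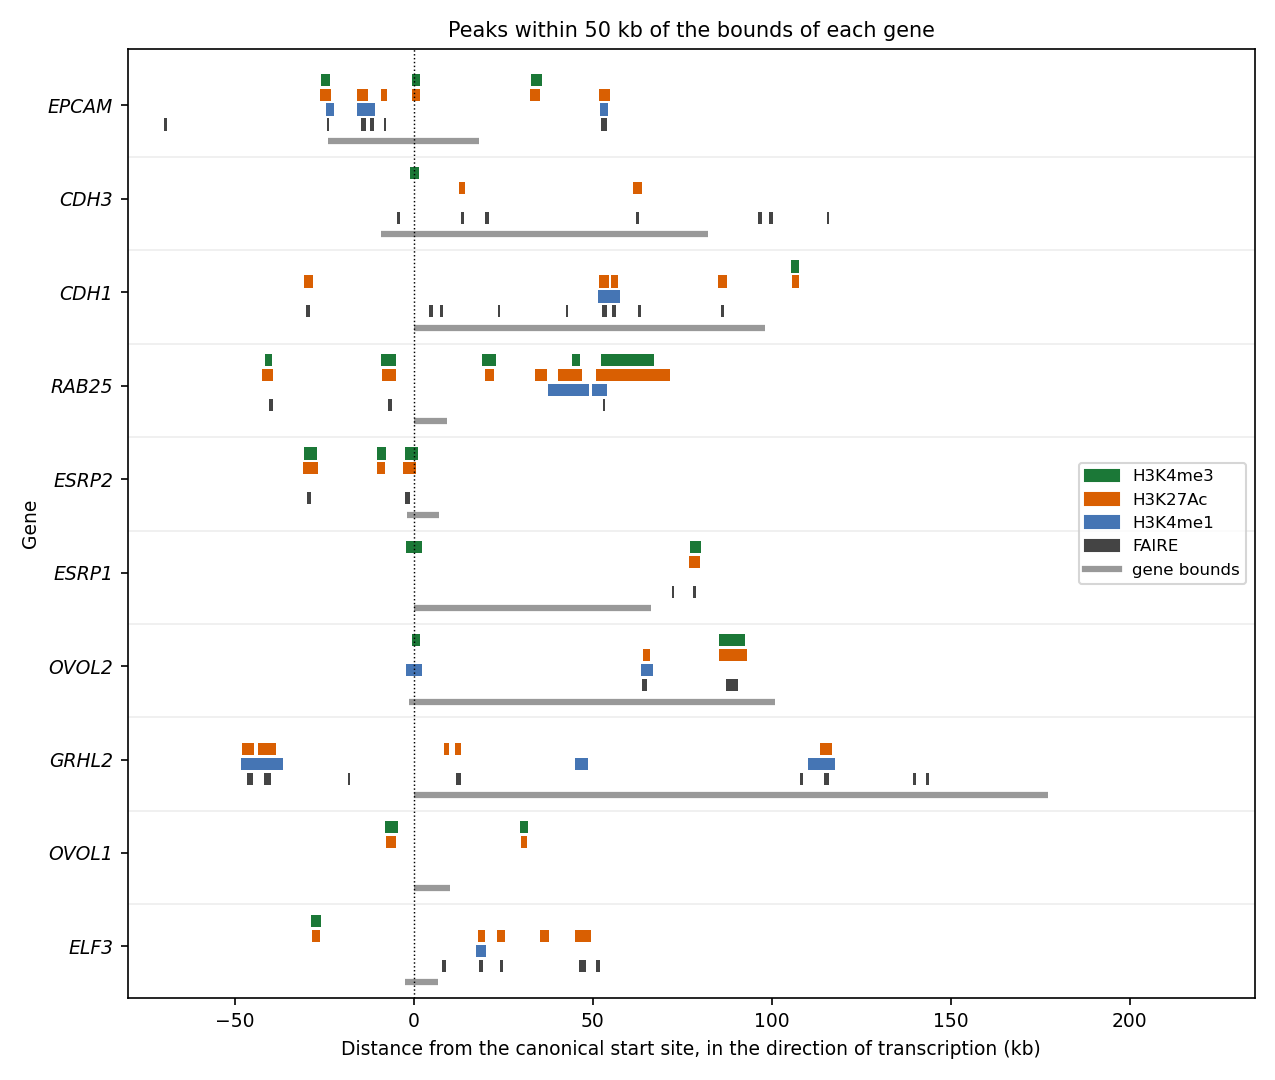
Peaks of the 4 lists within 50 kb of the bounds of each member, by distance in kb from its canonical start in the direction of transcription; grey bars are the gene bounds. OVOL1 has no FAIRE peak, GRHL2 has no H3K4me3 peak, and CDH1 and CDH3 share peaks because they are neighbours.

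Enhancer-like places were counted as H3K4me1 peaks that shared a base with an H3K27Ac and a FAIRE peak, met no H3K4me3 peak and met no coding promoter. Within 50 kb, 5 of 10 members had at least 1, which were CDH1, EPCAM, GRHL2, OVOL2 and ELF3, beside 33.8% of all genes. The widened bounds ran from 109.1 kb at ESRP2 to 277.3 kb at GRHL2. This count was not scaled to length, and a longer gene has more room for such a place. The members had 7 such peaks among 12111 in the whole list. A place near a gene is not shown to act on it.

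The highest-scoring of the 7 lay upstream of GRHL2, at chr8:102456205-102468130. It was 11926 bp wide, with an H3K4me1 score of 902, H3K27Ac scores up to 2704 and FAIRE heights up to 118. A second place in a GRHL2 intron, at chr8:102614718-102622266, had scores of 347 for H3K4me1 and 1193 for H3K27Ac. Peaks of the upstream place also met the start of an unnamed noncoding gene. GRHL2 thus had the highest-scoring enhancer-like place of the members and no peak at its canonical start.

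CDH1 had such a place in an intron, 51365 bp from its canonical start at chr16:68822560-68828719. Its H3K4me1 score was 212, its 2 H3K27Ac peaks scored up to 304, and its 2 FAIRE peaks reached a height of 78.3. The medians of all such places were 165 for H3K4me1, 617 for the highest H3K27Ac score and 75.8 for the highest FAIRE height. The CDH1 intron was therefore above the median in H3K4me1 and FAIRE and under it in H3K27Ac, at a gene whose canonical start had no peak.

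EPCAM had 2 such places, and the one described here lay in an intron at chr2:47580410-47585607, between its upstream and its canonical start, with an H3K4me1 score of 347 and an H3K27Ac score of 2255. The OVOL2 intron had a lower-scoring one at chr20:17971803-17975163, with an H3K4me1 score of 131 and an H3K27Ac score of 90.7. The one downstream of ELF3, at chr1:201997092-201999928, had an H3K4me1 score of 194 and an H3K27Ac score of 101, and also met the start of a noncoding gene. ELF3 also had a taller FAIRE peak farther downstream, of height 135, inside an H3K27Ac peak that scored 1098 without H3K4me1. The members without such a place were CDH3, ESRP1, ESRP2, OVOL1 and RAB25, and of these ESRP2 alone had acetylation at its canonical start.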

How the data were processed

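The authors aligned FAIRE and ChIP reads with BWA, removed duplicates and poorly mapped reads, and called histone peaks with MACS and FAIRE peaks with FindPeaks, each against input, and the deposited lists used here are of combined libraries; the submitters' processing notes also name TopHat and HOMER. The deposited histone score is the negative log10 of the p-value that MACS gave, multiplied by 10. The deposited FAIRE signal was taken as a peak height, since the list names no columns and no scaling. Read depth is not given in the lists. Coordinates are on hg19 (GRCh37); starts were taken as counted from 0 and are printed as counted from 1, and no peak ran past a chromosome's end.

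Genes, start sites and canonical transcripts came from GENCODE 44 lifted to GRCh37. Overlaps of at least 1 base were computed with numpy 2.4.6 and pandas 2.3.3 and drawn with matplotlib 3.10.9; on 3000 simulated windows 0 differed from bedtools 2.31.1. No test was run, as each assay had 1 list. Members and gene lists were chosen with earlier results of these data known. The named genes are all members, in each other list the genes against its H3K4me3 majority and up to 4 of the majority by score then alphabet, the markers of the line, and neighbours whose promoter met a counted peak, of which 1 is not reported here; CDH6 and JUP were named after their values were seen. The canonical start and the definition of enhancer-like places were also chosen after the data were seen. Alternatives changed the promoter window, the start sites, the distance, the peak threshold, the overlap and the treatment of neighbours' promoters.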

Additional observations from a re-analysis of the deposited data

How the results depend on the processing

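Of 69 values under alternative settings, 53 were within 1.5 times the reported count and 16 moved further. The H3K4me3 and H3K27Ac promoter counts were among the former. With stronger peaks only (score at least 100, FAIRE at or above the list's median), H3K4me1 promoters fell to 0 members, FAIRE promoters to 2, and FAIRE peaks within 50 kb to 20. That setting kept 23276 of 46552 FAIRE peaks and 15282 of 26771 H3K4me1 peaks in the whole lists, so a fall is built into it. With start sites of coding transcripts only, FAIRE promoters fell to 2 and members with no peak rose to 5. With the most upstream start only, these were 2 and 6. Shares of all genes were not counted for stronger peaks, coding starts or the most upstream start. Whether all genes moved alike under these settings was therefore not tested. With the canonical start only, an alternative added after seeing the data, H3K4me1 promoters were 1, FAIRE promoters 0 and members with no peak 5. The shares of all genes there were 12.5%, 31.8% and 32.8%. Widening the bounds by 100 kb gave 35 H3K4me3, 57 H3K27Ac, 22 H3K4me1 and 80 FAIRE peaks. Without peaks at promoters of other coding genes, 7 H3K4me3 and 22 H3K27Ac peaks were counted. These shifts follow from taking fewer starts, fewer peaks or more sequence. No paired analysis was possible because the list used here for an assay is of its 2 libraries combined, so neither could be left out. The lists used here give no depth, and weak marks under the threshold cannot be seen. Promoter peaks of CDH1, CDH3, ESRP1, ESRP2 and OVOL2, and those at the upstream start of EPCAM, also met starts of noncoding genes and cannot be given to the members alone.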
